A study of Mus musculus with 4 samples.

Results

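Transcripts of 9 glycolytic enzymes and of the glucose transporter gene Slc2a1 were followed through the lineages of mouse bone marrow in single-cell RNA counts. The 10 genes, of 32285 in the count tables, were Slc2a1, Hk2, Pfkl, Aldoa, Tpi1, Gapdh, Pgk1, Eno1, Pkm and Ldha. They were chosen by name for their place in the pathway, with earlier results of these data known. All 10 were found by symbol.

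The cells came from 6 female mice, each 6 weeks old and of the genotype Tppp3CreER LSLTdTomato, so that all groups carried the tamoxifen-inducible Cre recombinase named for the Tppp3 gene and the tdTomato reporter that it switches on. Mice of the first treatment received tamoxifen with rapamycin, an inhibitor of the kinase mTOR, at P0 and P3 (n = 2 mice). Mice of the second received rapamycin at P30 and no tamoxifen, called late rapamycin (n = 2). The hashtag table names this group's hashtags, 3 and 6, only as control, and they were read as late rapamycin because the sample labels give mice 3 and 6 rapamycin at P30. Mice of the third received tamoxifen at P0 and P3 (n = 2). No group without any agent is labelled, and a strain is not named. Marrow cells, labelled as Lin-Sca+Kit+, Lin-Sca-Kit+ and whole marrow, carried 1 antibody hashtag per mouse, and 3 mice, 1 of each treatment, were pooled on each of 2 processing days. A sort of this kind sets the shares of the lineages, so those shares are not results here. The series design also speaks of 2 weeks in place of 6. In the deposited hashtag table, numbers 1 and 4 stand for tamoxifen plus rapamycin and numbers 2 and 5 for tamoxifen, whereas the sample labels give mice 1 and 4 as tamoxifen and mice 2 and 5 as the combination. The hashtag table was followed. If the numbers in the labels are hashtag numbers, these treatments change places in every comparison below, while the comparisons between lineages and between dividing and non-dividing cells do not depend on them.

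Glucose enters cells through transporters such as GLUT1, the product of Slc2a1, and hexokinase traps it as glucose 6-phosphate. Phosphofructokinase commits the sugar to glycolysis, aldolase splits it, and the later enzymes make ATP, NADH and pyruvate, which lactate dehydrogenase turns to lactate. Hematopoietic stem cells are known for a reliance on glycolysis in hypoxic marrow, neutrophils have few mitochondria and live largely on glycolysis, and mature red cells have no other source of ATP. The factor HIF-1, stabilised by low oxygen and raised by mTOR, is known to drive many of these genes through a core motif written ACGTG or GCGTG.

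Promoter windows are shown for Slc2a1, Hk2 and Pkm, the genes with the widest differences between lineages, and for Ldha, which was higher in erythroid cells where these were lower. They were searched for ACGTG, a known form of the core of HIF-1 sites. They run from 250 bases before to 50 after a transcription start, 5′ to 3′ on the gene's strand, from RefSeq on GRCm38.p6. Capitals mark ACGTG or its reverse complement CACGT. The Slc2a1 window is chr4:119108495-119108794 on the plus strand, the Hk2 window chr6:82774405-82774704 on the minus strand, the second of 2 Pkm windows chr9:59656977-59657276 on the plus strand, and the first of 2 Ldha windows chr7:46845554-46845853 on the plus strand. The Pkm and Ldha windows not shown held no ACGTG.
Slc2a1: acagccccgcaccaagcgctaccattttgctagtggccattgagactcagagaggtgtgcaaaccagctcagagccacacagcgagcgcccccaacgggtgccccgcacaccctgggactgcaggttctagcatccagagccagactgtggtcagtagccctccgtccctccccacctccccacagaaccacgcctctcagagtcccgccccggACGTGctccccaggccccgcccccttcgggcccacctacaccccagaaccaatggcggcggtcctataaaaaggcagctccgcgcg
Hk2: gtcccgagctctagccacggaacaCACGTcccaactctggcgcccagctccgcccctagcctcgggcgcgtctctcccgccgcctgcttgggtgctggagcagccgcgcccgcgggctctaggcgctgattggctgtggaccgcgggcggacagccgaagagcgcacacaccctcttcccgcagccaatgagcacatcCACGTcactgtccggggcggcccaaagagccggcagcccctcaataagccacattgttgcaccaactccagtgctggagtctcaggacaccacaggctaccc
Pkm: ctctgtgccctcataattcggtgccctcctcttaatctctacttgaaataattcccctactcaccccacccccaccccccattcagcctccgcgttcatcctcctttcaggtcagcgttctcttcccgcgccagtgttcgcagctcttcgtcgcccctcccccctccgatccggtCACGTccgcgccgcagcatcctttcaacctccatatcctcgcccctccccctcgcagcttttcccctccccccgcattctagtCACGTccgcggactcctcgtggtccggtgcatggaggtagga
Ldha: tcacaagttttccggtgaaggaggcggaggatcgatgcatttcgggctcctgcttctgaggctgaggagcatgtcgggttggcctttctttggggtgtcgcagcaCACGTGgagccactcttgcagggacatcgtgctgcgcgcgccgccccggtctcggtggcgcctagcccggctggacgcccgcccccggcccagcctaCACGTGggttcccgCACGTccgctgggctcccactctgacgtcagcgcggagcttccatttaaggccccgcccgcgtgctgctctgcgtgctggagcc
Searched on both strands, ACGTG was found in a window of 7 of the 10 genes (Slc2a1, Hk2, Aldoa, Gapdh, Pgk1, Pkm and Ldha), in 8 of their 16 windows, and in 6447 of all 32851 windows of this length in the table (19.6%). The Aldoa windows with ACGTG overlap and hold the same site, so it is counted more than once. The longer palindrome CACGTG, which contains ACGTG, was found in 1 of the 10 genes, Ldha, and in 2349 of all windows (7.2%). The windows of Pfkl, Tpi1 and Eno1 held neither string of letters. The other form of the core, GCGTG, was not searched for, so these windows cannot be said to lack the core. The GC content of the 4 windows printed was 65.3%, 67.3%, 61.3% and 67.3%, in the order shown.

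On GRCm38 and the GENCODE vM21 annotation the protein-coding genes lie at chr4:119108711-119137983 (Slc2a1), chr6:82725025-82774454 (Hk2), chr10:77986947-78010083 (Pfkl), chr7:126795234-126800751 (Aldoa), chr6:124810586-124814296 (Tpi1), chr6:125161715-125166467 (Gapdh), chrX:106187100-106203699 (Pgk1), chr4:150236721-150248879 (Eno1), chr9:59656368-59679375 (Pkm) and chr7:46841475-46855627 (Ldha). Their molecules, counted as unique molecular identifiers (UMIs), over all kept cells numbered 2387 for Slc2a1, 5071 for Hk2, 7245 for Pfkl, 46270 for Aldoa, 38113 for Tpi1, 166297 for Gapdh, 34992 for Pgk1, 15256 for Eno1, 47436 for Pkm and 64227 for Ldha. Slc2a1, Hk2 and Pfkl are thus the least precisely measured. Eno1 has a near-identical copy (Eno1b), and Gapdh, Aldoa, Pgk1, Ldha, Tpi1 and Pkm have processed pseudogenes, so reads may have been split or lost among copies. Counts of 3′ ends also merge the splice forms of Pkm.

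Of the barcodes deposited, 37231 were kept with 1 hashtag each, 19368 on day 1 and 17863 on day 2. Each mouse had 5923 to 6972 cells with a median of 3025 to 4597.5 UMIs. The libraries shared 73 kept barcodes. Cells were assigned to a lineage by marker lists that hold none of the 10 genes, and 26196 cells (70.36%) passed a gate. In 10 lineages with enough cells in each mouse, at least 7 of 8 listed markers, or all of the longer lists, were at least 2-fold higher than in the other gated cells. The gates were drawn on these same markers, so this does not test the lineage names. Late rapamycin replicate 1 stood apart from the other 5 mice. It held 1330 neutrophil progenitor-like cells, against 344 to 644 in the others, 192 HSC-like cells against 329 to 612, and 51 pro-B/pre-B-like cells against 318 to 604. Its neutrophil-like cells had a median of 2866 UMIs, against 1249.5 to 1452, and 58.811% of its myelocyte-like cells counted as dividing, against 33.3% to 44.6%. Results are therefore also given without this mouse.

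Together the 10 genes took their highest shares of RNA in the granulocyte and monocyte lineages. They took 0.346% ± 0.0631 of gene UMIs in neutrophil progenitor-like cells, 0.327% ± 0.0867 in neutrophil-like cells, 0.308% ± 0.0464 in myelocyte-like cells and 0.254% ± 0.0527 in monocyte-like cells (SD over mice, n = 6, here and for all levels below). The share was 0.178% ± 0.00959 in erythroid progenitor-like cells, 0.172% ± 0.0169 in multipotent progenitor (MPP)-like cells, 0.157% ± 0.0137 in Gata2-positive megakaryocyte-erythroid precursor-like cells and 0.146% ± 0.00769 in lymphoid-primed progenitor-like cells. Pro-B/pre-B-like cells had 0.139% ± 0.0213, and HSC-like cells had 0.142% ± 0.00982, with a lowest mouse of 0.130% and a highest of 0.158%. In each of the 4 granulocyte and monocyte lineages the highest mouse was late rapamycin replicate 1. Its share was 0.475% in neutrophil progenitor-like cells (67032 of 14118902 UMIs, Wilson 95% interval 0.471% to 0.478%, counting error only), against at most 0.326% in the other mice.

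**Figure D1:**
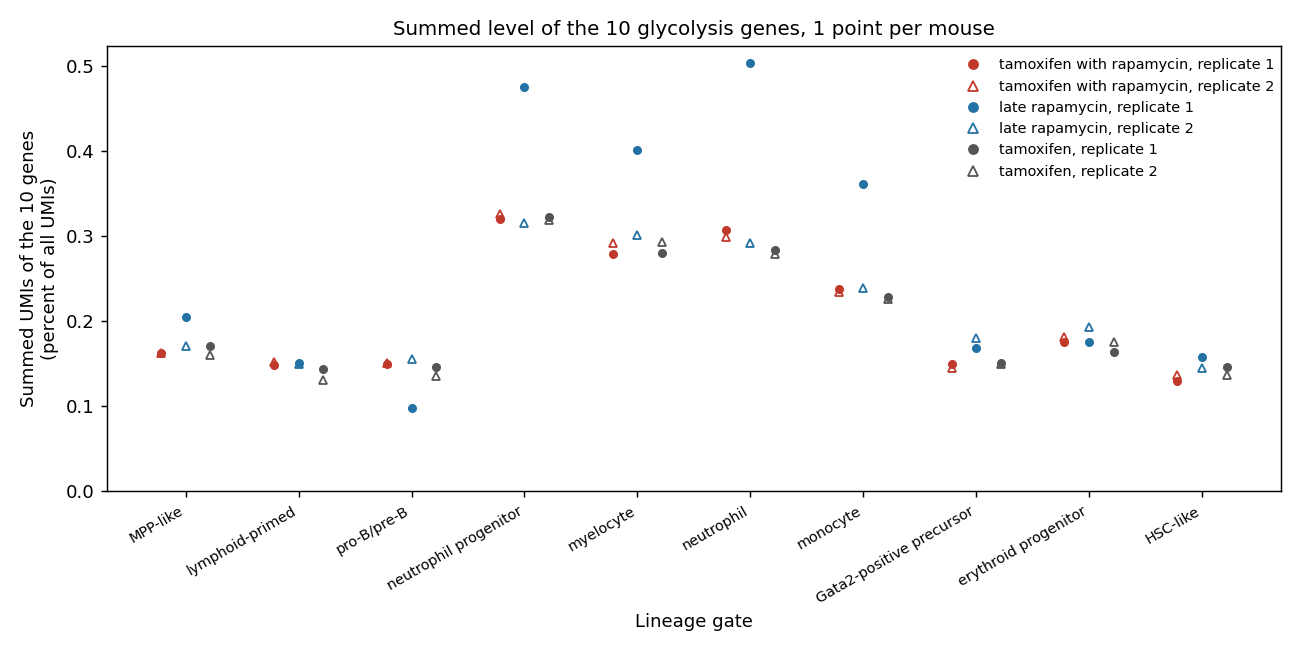
Summed UMIs of the 10 genes as a percent of all gene UMIs (vertical axis) in each lineage gate (horizontal axis), with 1 point per mouse, coloured by treatment and shaped by replicate. Late rapamycin replicate 1 is the highest point in neutrophil progenitor-like (0.475%), neutrophil-like (0.503%), myelocyte-like (0.401%) and monocyte-like cells (0.361%), and even the other 5 mice lie higher in these lineages than in the remaining 6.

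Levels below are CPM, a gene's UMIs scaled by all gene UMIs of the lineage in that mouse. Slc2a1, the transporter, was highest in neutrophil-like cells at 50.1 ± 23.0 CPM (24.8, 45.3 and 93.9 CPM as lowest, median and highest mouse). HSC-like cells followed at 23.2 ± 3.52 CPM (16.7, 23.3 and 26.8 CPM), and their mice overlapped those of the neutrophil-like cells. MPP-like cells had 16.9 ± 1.96 CPM, and the next 5 lineages lay between 9.40 CPM in myelocyte-like and 12.98 CPM in Gata2-positive cells, with overlapping mice. Erythroid progenitor-like cells had 0.405 ± 0.508 CPM (0, 0.254 and 1.39 CPM), below every mouse of the other lineages except pro-B/pre-B-like cells. No Slc2a1 UMI was seen in the erythroid cells of late rapamycin replicate 2, which allows up to 0.334 CPM at 8993135 UMIs, and none in the pro-B/pre-B-like cells of late rapamycin replicate 1, which allows 27.0 CPM and is too shallow to be read.

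Hk2, the inducible hexokinase, was highest in monocyte-like (74.9 ± 13.1 CPM) and myelocyte-like cells (73.4 ± 14.6 CPM), whose mice overlapped. Neutrophil progenitor-like cells had 43.3 ± 0.851 CPM, and every one of their mice lay below every myelocyte-like mouse. HSC-like cells had 28.0 ± 7.69 CPM and MPP-like cells 28.2 ± 5.72 CPM. The low end was held by pro-B/pre-B-like cells at 7.38 ± 1.44 CPM (lowest 5.60, highest 9.01 CPM) and, without overlap, erythroid cells at 3.18 ± 0.444 CPM (2.52 to 3.77 CPM). Pfkl, the liver-type phosphofructokinase, had another order. On CPM it was highest in HSC-like cells at 49.8 ± 8.43 CPM and lowest in myelocyte-like (14.0 ± 2.64 CPM) and neutrophil-like cells (13.7 ± 11.8 CPM), and all its neighbours in that order overlapped. The scaling of the tests below did not keep HSC-like cells at the top. There Pfkl differed from them by 0.25 in neutrophil progenitor-like and 0.04 in MPP-like and erythroid cells, and none of these passed.

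Aldoa, the aldolase, ranged from 448 ± 114 CPM in neutrophil-like to 72.4 ± 12.5 CPM in pro-B/pre-B-like cells. Its 4 granulocyte and monocyte lineages overlapped among themselves and lay above erythroid cells (198.5 ± 14.4 CPM), which lay above HSC-like cells (164 ± 7.48 CPM) in every mouse. Tpi1, triosephosphate isomerase, split the neutrophil lineage. It was highest in neutrophil progenitor-like cells at 295 ± 45.2 CPM (267 to 385 CPM), then erythroid cells at 233 ± 14.8 CPM (213 to 255 CPM) and MPP-like cells at 179.6 ± 16.5 CPM, with no overlap between these 3 in that order. It was lowest in neutrophil-like cells at 66.3 ± 33.8 CPM (42.0, 57.2 and 133 CPM). Dividing cells, defined below by mitosis genes, made up 90.03% of neutrophil progenitor-like, 96.56% of erythroid, 36.21% of MPP-like and 2.94% of neutrophil-like cells. The part of division in this order was not tested.

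Gapdh, which reduces NAD+ at the next step, was highest in neutrophil progenitor-like cells (1414 ± 280 CPM) and lowest in HSC-like cells (459.8 ± 38.4 CPM), where no mouse overlapped the next lineage, the Gata2-positive cells (542 ± 31.8 CPM). Pgk1, which makes ATP from the product of Gapdh, ran from 295 ± 47.7 CPM in neutrophil progenitor-like to 115 ± 8.81 CPM in erythroid cells, beside 115 ± 18.0 CPM in HSC-like cells. Eno1, the enolase, was between 128 ± 32.5 and 161 ± 30.7 CPM in the granulocyte and monocyte lineages and between 40.3 ± 10.7 and 56.3 CPM in the other 6, with no mouse in common. Within either set the neighbours overlapped.

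Pkm, pyruvate kinase of the muscle type, had the second-widest spread after Slc2a1. Neutrophil-like cells had 772 ± 127 CPM (641 to 1008 CPM), HSC-like cells 213 ± 25.5 CPM (184, 208 and 259.8 CPM) and erythroid cells 6.95 ± 1.41 CPM (5.45, 6.37 and 8.86 CPM). The highest mean was 111 times the lowest for Pkm, 124 times for Slc2a1, 23.6 times for Hk2 and at most 6.18 times for the other 7 genes. Without late rapamycin replicate 1 the ratio for Slc2a1 was 199 (41.3 CPM in neutrophil-like and 0.207 CPM in erythroid cells). Ldha, the A subunit of lactate dehydrogenase, had the narrowest spread with all mice, 2.45 times. Without late rapamycin replicate 1 Pgk1 had the narrowest, 2.42 times. Ldha then had 2.62 times and was highest in erythroid cells (430.4 CPM). With all mice Ldha was at 442 ± 123 CPM in neutrophil progenitor-like cells, 435 ± 30.7 CPM in erythroid cells (389, 442 and 470.4 CPM) and 181 ± 42.8 CPM in HSC-like cells (150.1, 165 and 263 CPM). The neighbours in its order overlapped throughout.

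**Figure D2:**
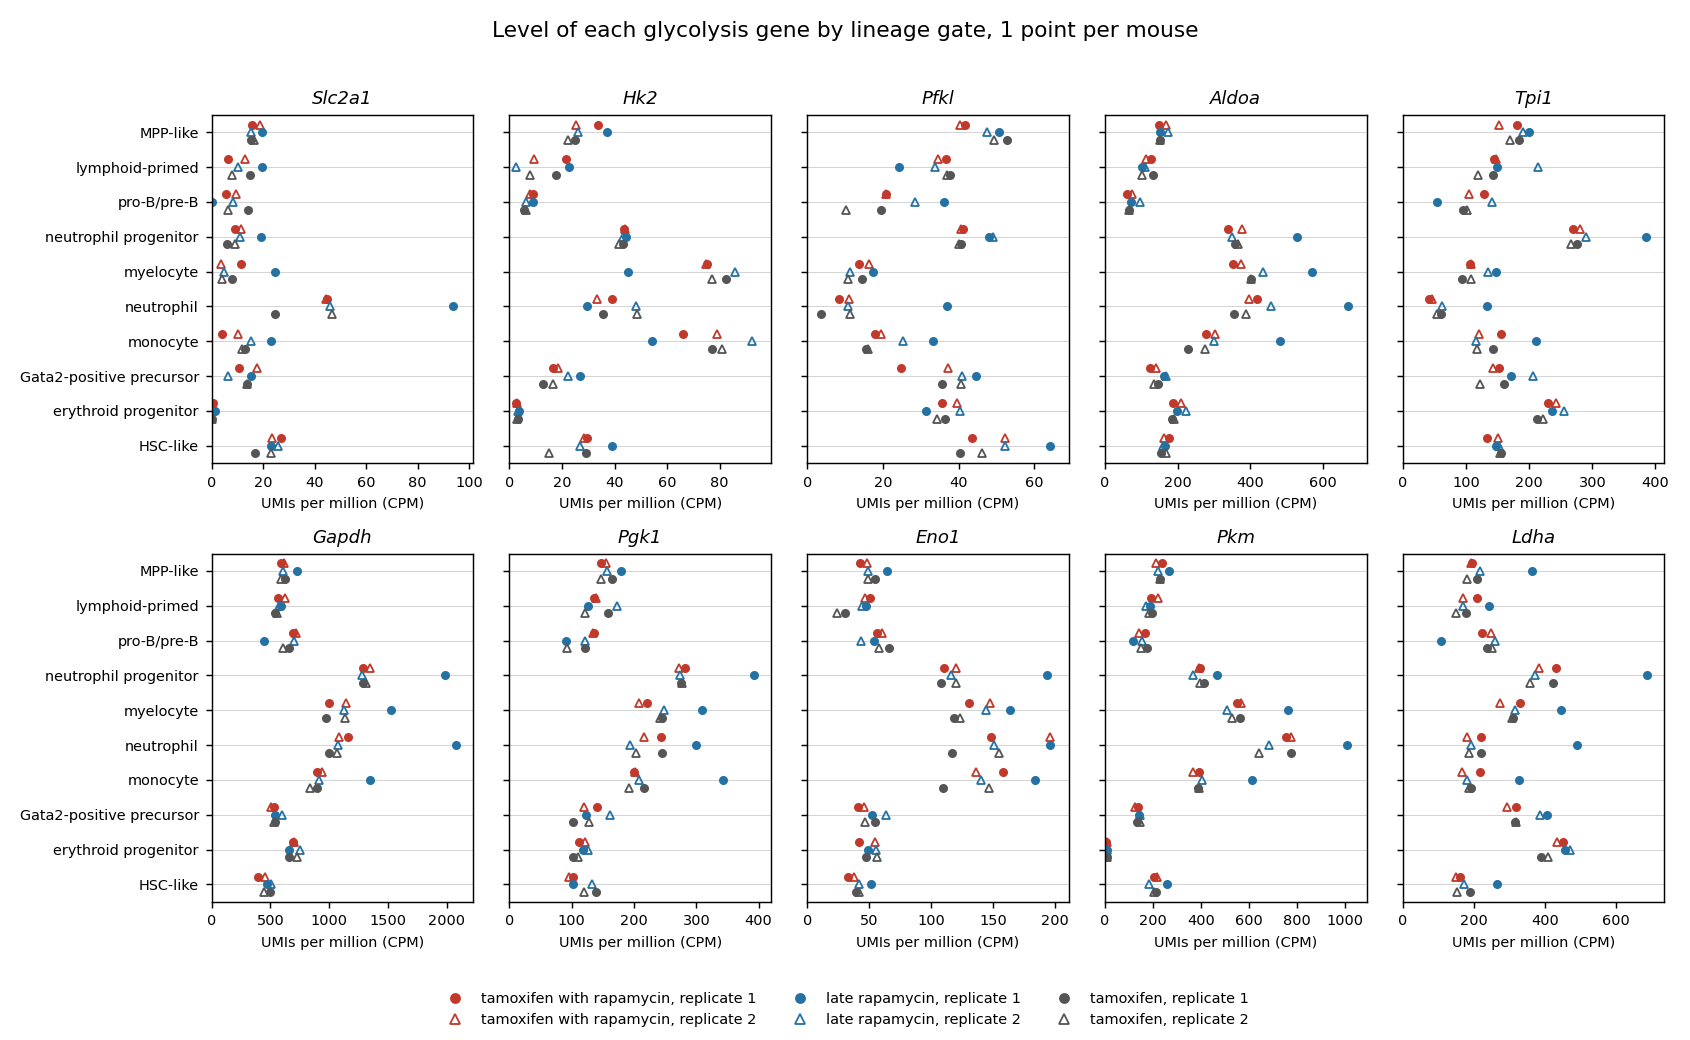
Level of each of the 10 genes (CPM, horizontal axis of each panel, from 0) in 10 lineage gates (rows), with 1 point per mouse, coloured by treatment and shaped by replicate. In erythroid progenitor-like cells Pkm and Slc2a1 lie near 0 (means of 6.95 and 0.405 CPM), while Ldha lies at a mean of 435 CPM.

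Each lineage was then compared with HSC-like cells in a model with the mouse as a term (edgeR quasi-likelihood test, Benjamini-Hochberg adjusted p under 0.05 over all genes). The share of dividing cells was 15.98% in HSC-like cells and ran from 2.94% in neutrophil-like to 96.56% in erythroid cells. The model held no term for division, and its part in the differences between lineages was not tested. Log2 differences use TMM scaling, whose factors ran from 1.28 to 1.34 in HSC-like cells and from 0.564 to 0.706 in myelocyte-like cells, so they differ from ratios of CPM. Of 90 tests on the 10 genes, 69 passed, 53 higher and 16 lower. Of these, 59 passed with the same sign under all 3 scalings tried and 68 without late rapamycin replicate 1. Plain UMI totals turned 3 signs, named below, and moved the median over all genes to -1.40 in neutrophil-like, -1.09 in myelocyte-like, -0.45 in erythroid, -0.34 in neutrophil progenitor-like, -0.31 in monocyte-like and -0.23 in pro-B/pre-B-like cells.

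In the granulocyte and monocyte lineages 8 of the 10 genes rose and 1 fell in each. The shares of all genes that passed were 76.9% in neutrophil progenitor-like, 78.8% in myelocyte-like, 77.7% in neutrophil-like and 69.8% in monocyte-like cells, so that passing alone sets the 10 genes little apart. The higher share over all genes was 42.5%, 37.5%, 29.9% and 38.8% in the same order. The medians of the 10 were 1.53, 2.18, 1.90 and 1.32, against 0.11, -0.07, -0.50 and 0.09 for all genes. Under plain totals the medians of the 10 were 1.07, 1.17, 1.00 and 0.92, and the counts became 8 higher and 1 lower, 7 and 3, 8 and 2, and 6 and 2.

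Eno1 rose by 2.07 in neutrophil progenitor-like, 2.74 in myelocyte-like, 2.87 in neutrophil-like and 2.21 in monocyte-like cells. Pkm rose by 2.74 ± 0.0974 (SE, adjusted p = 1.59e-34) in neutrophil-like and 2.44 in myelocyte-like cells. Gapdh rose by 2.05 to 2.30 in the 3 neutrophil-line stages and by 1.45 in monocyte-like cells. Aldoa, Pgk1, Hk2 and Ldha rose in all 4 as well, with Hk2 by 2.43 and 1.89 in myelocyte-like and monocyte-like cells. Pfkl fell by 0.78 in myelocyte-like, 0.74 in neutrophil-like and 0.74 in monocyte-like cells (adjusted p = 0.000139, 0.00461 and 0.000435). The neutrophil-like value was -1.45 without late rapamycin replicate 1 and -0.59, no longer passing, without late rapamycin replicate 2, and it did not pass under the stricter cell filter either. In neutrophil progenitor-like cells the Pfkl difference of 0.25 did not pass, and it passed at 0.23 without late rapamycin replicate 1.

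Slc2a1 and Tpi1 divided these lineages. Slc2a1 rose by 1.95 ± 0.236 in neutrophil-like cells (adjusted p = 7.64e-11) and fell by 0.72 in neutrophil progenitor-like cells (adjusted p = 0.0021), a call lost without the mouse as a term. Its differences of -0.21 in myelocyte-like and -0.50 in monocyte-like cells did not pass with all mice. Both passed as falls without late rapamycin replicate 1 (-0.999 and -0.65) and under plain totals (-1.25 and -0.89). Tpi1 rose by 1.40 in neutrophil progenitor-like cells. Its call in myelocyte-like cells, 0.62, turned to -0.39 and a called fall under plain totals, and that in monocyte-like cells, 0.32, turned to -0.08. The monocyte call also did not pass without late rapamycin replicate 1, where the difference was 0.13. In neutrophil-like cells the Tpi1 difference was -0.23 (adjusted p = 0.234), and it passed as a fall without that mouse (-0.66) and under plain totals (-1.15).

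In erythroid progenitor-like cells 6 of the 10 genes rose and 3 fell, where 83.3% of all genes passed and 42.5% were higher. Under plain totals 5 rose and 4 fell. Pkm fell by 4.46 ± 0.118 (adjusted p = 3.35e-41), Slc2a1 by 5.55 ± 0.347 (adjusted p = 1.61e-22) and Hk2 by 2.54 ± 0.197 (adjusted p = 2.13e-18). Ldha rose by 1.79 ± 0.131 (adjusted p = 1.84e-19), Tpi1 by 1.10 and Gapdh by 1.08. Eno1 and Aldoa rose by 0.80 and 0.74. The call for Pgk1, 0.44, turned to -0.04 under plain totals. Pfkl differed by 0.04 and did not pass, but it passed as a fall of -0.44 under plain totals. The fitted fold of Slc2a1 rests on 13 UMIs in erythroid cells, its size depends on the prior count, and it was -6.26 without late rapamycin replicate 1. Free RNA in the droplets was not measured, so its part in the low erythroid levels was not tested.

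In the remaining lineages the median difference of the 10 genes was smaller, though single genes moved by more than 1. It was 0.30 in MPP-like, 0.029 in lymphoid-primed, 0.025 in Gata2-positive and -0.12 in pro-B/pre-B-like cells. Rises and falls offset each other in some of these medians. In MPP-like cells 6 genes rose (Tpi1 0.36, Gapdh 0.54, Pgk1 0.54, Eno1 0.42, Pkm 0.25 and Ldha 0.42) and none of the 10 fell, where 35.7% of all genes passed. Under plain totals 4 genes rose and 1 fell, and over all alternatives 1 to 6 rose, with 1 under the stricter cell filter and 3 in DESeq2 or without the mouse as a term. In lymphoid-primed progenitor-like cells Gapdh and Pgk1 rose by 0.42 and 0.37, while Slc2a1, Hk2 and Aldoa fell by 0.92, 0.71 and 0.41 (35.1% of all genes passed). Under plain totals the split was 1 higher and 4 lower, and none of the 10 rose under the stricter cell filter or without either tamoxifen with rapamycin mouse. In Gata2-positive cells Ldha rose by 1.02 ± 0.134 (adjusted p = 2.89e-09), Eno1 by 0.39 and Gapdh by 0.32, while Slc2a1 fell by 0.88 and Pkm by 0.52 (47.8% of all genes passed). Ldha, higher, and Pkm and Slc2a1, lower, thus had the same signs there as in erythroid cells. Under plain totals the split was 2 higher and 3 lower, and over all alternatives 1 to 4 rose and 1 to 4 fell. In pro-B/pre-B-like cells Gapdh, Eno1, Ldha and Pgk1 rose by 0.80, 0.79, 0.76 and 0.36, and Hk2, Slc2a1, Pfkl and Aldoa fell by 1.54, 1.14, 0.92 and 0.86 (67.3% of all genes passed). Under plain totals the split was 3 higher and 6 lower.

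**Figure D3:**
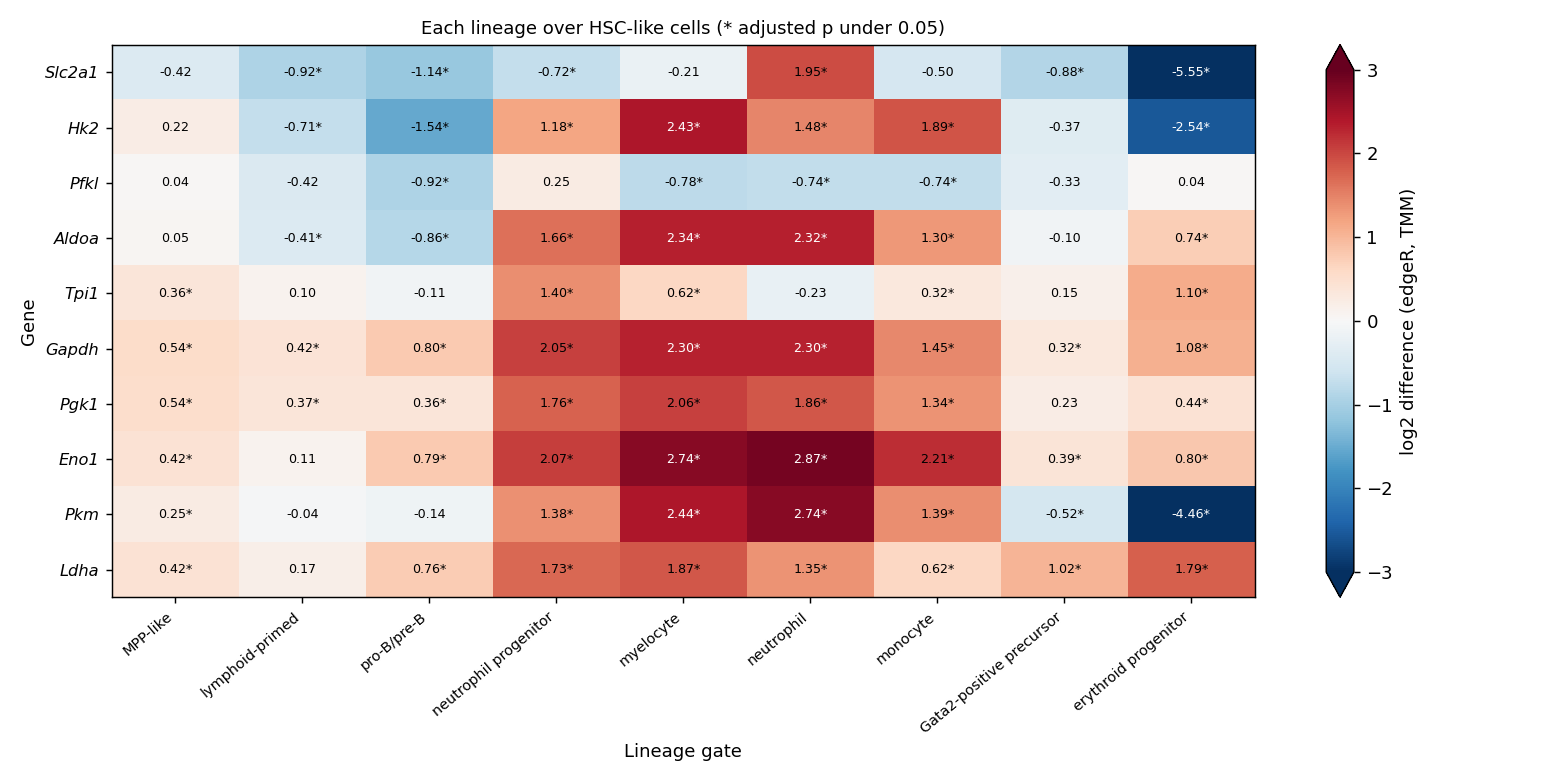
Fitted log2 difference of each lineage (columns) from HSC-like cells for the 10 genes (rows), printed and coloured on a scale that ends at 3 in either direction, with a star at adjusted p under 0.05. Among these values Slc2a1 (-5.55) and Pkm (-4.46) in erythroid progenitor-like cells are the lowest, and Eno1 in neutrophil-like cells (2.87) is the highest.

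Other genes of the pathway, taken from lists of related genes, changed in the same lineages. In erythroid cells Pklr, the liver and red-cell pyruvate kinase, was at 103 ± 7.42 CPM (88.2 to 108 CPM), against 0.446 CPM in HSC-like cells from 4 UMIs in all, and rose (adjusted p = 2.72e-33), beside the fall of Pkm. Ldhb, the B subunit of lactate dehydrogenase, fell to 1.502 CPM in erythroid cells, against 66.8 CPM in HSC-like cells (log2 difference -4.89), beside the rise of Ldha. Slc16a1, the lactate transporter MCT1, was at 134 CPM in erythroid against 21.0 CPM in HSC-like cells (3.20), and its partner Bsg at 457 against 133 CPM (2.24). Pfkfb3, whose product raises phosphofructokinase activity, fell to 8.18 CPM in erythroid cells, against 90.5 CPM in HSC-like cells. None of the 5 regulators of the phosphofructokinase step tested rose there and 4 fell. Of 16 genes of the HIF pathway tested, 4 rose and 8 fell in erythroid cells, with Egln3, an oxygen sensor, at -4.92 and Ndrg1 at -3.74. Over all genes 83.3% passed in erythroid cells, 42.5% higher and 40.8% lower, so passing alone does not set these lists apart.

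In neutrophil-like cells Slc2a3, which encodes the transporter GLUT3, was at 706 ± 138 CPM, against 97.9 ± 11.9 CPM in HSC-like cells (3.69). Slc16a3, the lactate exporter MCT4, was at 169 CPM against 2.53 CPM (6.90). Adpgk, an ADP-dependent glucokinase, was at 539 ± 104 CPM in neutrophil-like cells, against 18.4 ± 4.51 CPM in HSC-like cells, and at 649 CPM in myelocyte-like cells. Hk3, the hexokinase of myeloid cells, was at 249.6 against 36.1 CPM, and Pfkfb4, a relative of Pfkfb3, at 198.5 against 19.2 CPM. Of the HIF pathway genes 10 rose and 2 fell of 16 tested in neutrophil-like cells, with Hif1a at 2.10. Over all genes 77.7% passed in neutrophil-like cells, 29.9% higher and 47.8% lower. The 7 pentose phosphate genes tested rose in neutrophil progenitor-like, myelocyte-like, monocyte-like and erythroid cells, and in neutrophil-like cells 5 rose and 1 fell. The higher share over all genes was 42.5% in neutrophil progenitor-like, 37.5% in myelocyte-like, 38.8% in monocyte-like and 42.5% in erythroid cells. Taldo1, transaldolase, rose by 4.05 in neutrophil-like and 2.11 in erythroid cells. In pro-B/pre-B-like cells none of the 12 other enzymes of the same steps rose and 7 fell, with Ldhb at -5.75 and Hk1 at -1.97, while Slc16a1 rose by 3.20. Over all genes 67.3% passed in pro-B/pre-B-like cells, 36.3% higher and 31% lower.

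Over the means of the 10 lineages the genes fell into loose sets. Among 45 pairs the median Pearson r was 0.263, from -0.7 for Pfkl with Eno1 to 0.931 for Gapdh with Eno1, and 28 were above 0. Gapdh with Pgk1 had 0.925, Hk2 with Pkm 0.857, Slc2a1 with Pkm 0.824, Pfkl with Tpi1 0.804, and Ldha with Slc2a1 -0.556. The points share libraries and depth, so these values are descriptions over 10 lineages. Among 9758 other genes, those whose lineage means were most like the average of the 10 were Alas1 (0.951), Gpc1 (0.949), Tmem165 (0.93), Card9 (0.925), F630028O10Rik (0.911), Anxa3 (0.911), Chst13 (0.905), Rab44 (0.901), Scnn1a (0.891) and Vamp3 (0.89).

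Within 6 lineages, cells with UMIs of at least 2 of 12 mitosis genes (dividing) were compared with cells with none (non-dividing). Of 51 tests on the 10 genes, 37 passed, 25 higher and 12 lower in dividing cells, and 34 passed without late rapamycin replicate 1. No called sign turned under another scaling. Dividing cells are also the deeper cells, since the choice counts UMIs, and the part of depth was not tested.

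Aldoa and Tpi1 moved in opposite directions. Aldoa in HSC-like cells was at 91.5 ± 16.0 CPM in dividing cells (70.6, 91.3 and 114 CPM), against 189.8 ± 13.2 CPM in non-dividing cells (173, 191 and 212 CPM), with no overlap. It fell by 1.07 ± 0.116 (adjusted p = 1.02e-13), and by 0.71 in MPP-like, 1.16 in lymphoid-primed, 0.51 in myelocyte-like and 0.75 in Gata2-positive cells. Its difference in monocyte-like cells, 0.17, did not pass (adjusted p = 0.2195). Tpi1 in HSC-like cells was at 215 ± 30.3 CPM in dividing cells (192, 207 and 275 CPM), against 119 ± 19.5 CPM in non-dividing cells (89.1, 124 and 139 CPM). It rose in all 6 lineages, by 0.80 in HSC-like, 0.70 in MPP-like, 0.68 in lymphoid-primed, 0.96 in myelocyte-like, 1.14 in monocyte-like and 0.56 in Gata2-positive cells.

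Gapdh, Pgk1 and Ldha rose in dividing cells of 5 lineages and fell in myelocyte-like cells in the main edgeR test. Over all settings tried, the number of followed genes that rose ran from 1 to 4 in lymphoid-primed cells. These 3 genes thus did not all pass there under every setting. In Gata2-positive cells that number ran from 3 to 6. Over the lineages, 27 tests passed in DESeq2, against 37 in the main test. Gapdh was at 581 ± 49.3 CPM in dividing and 406 ± 29.6 CPM in non-dividing HSC-like cells (0.55), but at 1050 ± 217 CPM in dividing and 1310 ± 231 CPM in non-dividing myelocyte-like cells (-0.48). Ldha was at 257 ± 52.6 CPM in dividing and 136 ± 41.0 CPM in non-dividing monocyte-like cells (0.94), and its difference was -0.58 in myelocyte-like cells. Pgk1 rose by 0.69 in HSC-like cells and fell by 0.41 in myelocyte-like cells. Hk2 fell by 0.80 in dividing HSC-like cells (adjusted p = 0.0219) and by 0.53 in myelocyte-like cells. Eno1 and Pkm rose in MPP-like and Gata2-positive cells and fell in myelocyte-like cells. Pkm no longer passed in MPP-like (0.13) and Gata2-positive cells (0.23), nor Eno1 in myelocyte-like cells (-0.24), without late rapamycin replicate 1, and under plain totals these 3, Pkm in myelocyte-like cells and Ldha in Gata2-positive cells did not pass. Without late rapamycin replicate 2, Hk2 in HSC-like cells (-0.54), Eno1 in myelocyte-like (-0.19) and Gata2-positive cells (0.51) and Ldha in Gata2-positive cells (0.16) did not pass.

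By lineage, 4 rose and 2 fell of 10 tested in HSC-like cells (31.9% of all genes passed), 6 and 1 of 10 in MPP-like cells (47.9%), 4 and 1 of 7 in lymphoid-primed cells (26%), 1 and 7 of 8 in myelocyte-like cells (59.7%), 4 and 0 of 8 in monocyte-like cells (51%), and 6 and 1 of 8 in Gata2-positive cells (27.1%). The medians over those of the 10 genes that were tested in each lineage were 0.13, 0.27, 0.42, -0.45, 0.46 and 0.38. Genes higher in dividing cells made up 17.6%, 24.7%, 14.3%, 30.2%, 26% and 13.9% of all genes, in the same order. Under plain totals the median over all genes in myelocyte-like cells moved to 0.19, and 1 rose and 5 fell there. Pgam1, phosphoglycerate mutase, the enzyme between Pgk1 and Eno1, rose by 0.75 in HSC-like cells and fell by 0.22 in myelocyte-like cells.

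**Figure D4:**
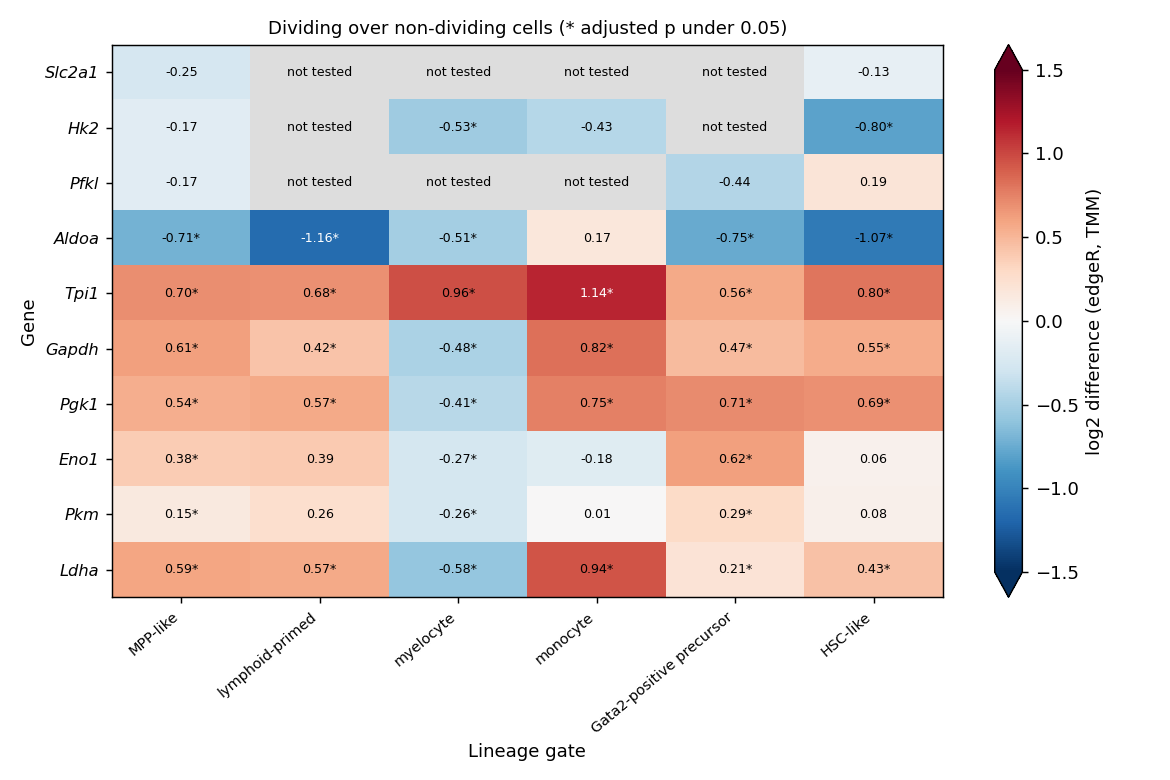
Fitted log2 difference of dividing from non-dividing cells for the 10 genes (rows) in 6 lineages (columns), printed and coloured, with a star at adjusted p under 0.05 and grey where a gene was not tested. Tpi1 is above 0 in each lineage (0.56 to 1.14), Aldoa is below 0 in each but monocyte-like cells (0.17), and 7 genes are lower in dividing myelocyte-like cells.

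The treatments were compared within each lineage with the processing day as a term, to ask how neonatal or late rapamycin relates to these transcripts. The 3 comparisons share mice and are not independent. No member passed in any of them, of 96 tests each in the edgeR quasi-likelihood test. Over all gene and lineage pairs, 0.165% passed in edgeR for tamoxifen with rapamycin against tamoxifen, 0.355% for late rapamycin against tamoxifen and 0.306% for tamoxifen with rapamycin against late rapamycin. No member passed in DESeq2 either, which tested other numbers of pairs. Only 0.024%, 0.0701% and 0.0522% of all pairs passed there, in the same order, so its lack of calls says little. Unadjusted p-values under 0.05 were found for 5, 22 and 15 of the 96 tests, where all pairs gave 5.16%, 8.57% and 8.9%. The 22 were all higher in late rapamycin than in tamoxifen, and the 15 all lower in tamoxifen with rapamycin than in late rapamycin. With 2 mice per treatment, p-values measure only the spread between these mice.

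In HSC-like cells, the stem cell gate, no difference between treatments passed for the 10 genes. Over all genes 0.168% passed there for tamoxifen with rapamycin against tamoxifen and 0.27% for late rapamycin against tamoxifen. For tamoxifen with rapamycin against late rapamycin 0.681% passed. Slc2a1 was at 26.8 and 23.4 CPM with tamoxifen and rapamycin, 23.1 and 25.9 CPM with late rapamycin, and 16.7 and 23.1 CPM with tamoxifen (tamoxifen with rapamycin against tamoxifen 0.25, adjusted p = 0.957). Hk2 was at 29.4 and 28.3 CPM with tamoxifen and rapamycin, 39.2 and 26.8 CPM with late rapamycin, and 29.1 and 15.1 CPM with tamoxifen (0.51, adjusted p = 0.902). Pgk1 was at 102 and 96.0 CPM with tamoxifen and rapamycin, 101.4 and 132 CPM with late rapamycin, and 139 and 119.8 CPM with tamoxifen (-0.38, adjusted p = 0.795). Slc2a1 and Pgk1 did not overlap between tamoxifen with rapamycin and tamoxifen, and Hk2 did. The share of all genes without such overlap was not counted, so nothing is concluded from it. No other gene of the pathway passed in HSC-like cells either.

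Ldha came closest to the threshold. In Gata2-positive cells it was at 319 and 294 CPM with tamoxifen and rapamycin, 406 and 387 CPM with late rapamycin, and 316 and 318 CPM with tamoxifen. Both late rapamycin mice lay above the other 4, but the share of all genes with such an order was not counted. The difference was -0.37 ± 0.0854 for tamoxifen with rapamycin against late rapamycin (adjusted p = 0.0504) and 0.32 for late rapamycin against tamoxifen (adjusted p = 0.128). In erythroid cells Ldha was at 449.5 and 434.5 CPM with tamoxifen and rapamycin, 456 and 470.4 CPM with late rapamycin, and 389 and 408 CPM with tamoxifen (late rapamycin against tamoxifen 0.19, adjusted p = 0.108). In MPP-like cells it was at 194 and 191 CPM with tamoxifen and rapamycin, 362 and 216 CPM with late rapamycin, and 209 and 179 CPM with tamoxifen. The first of these late rapamycin values is that of the mouse that stood apart.

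Late rapamycin replicate 1 stood apart from the other late rapamycin mouse in the granulocyte and monocyte lineages too. Gapdh in neutrophil progenitor-like cells was at 1283 and 1342 CPM with tamoxifen and rapamycin, 1984 and 1277 CPM with late rapamycin, and 1284 and 1315 CPM with tamoxifen. The median difference of the 10 genes between late rapamycin and tamoxifen mice of the same day, on log2(CPM + 1), was 0.53 on day 1 and 0.01 on day 2 in neutrophil progenitor-like cells, 0.98 and 0.00 in neutrophil-like cells, and 0.71 and 0.11 in monocyte-like cells. In Gata2-positive cells it was 0.14 on day 1 and 0.30 on day 2. When this mouse alone stood for late rapamycin, 35 of the tests against tamoxifen passed, 34 of them higher, where 9.83% of all pairs passed, and the lone mouse was assumed to vary like the others. Without it, late rapamycin replicate 2 alone stood for late rapamycin, under the same assumption. The differences from tamoxifen were then 0.21 for Ldha in erythroid cells and 0.67 for Tpi1 in Gata2-positive cells. For tamoxifen with rapamycin against late rapamycin Tpi1 in Gata2-positive cells was at -0.61. These values were picked by that fit of a lone mouse, so they are no replicated result. With all mice Tpi1 in Gata2-positive cells was at 152 and 142 CPM with tamoxifen and rapamycin, 171 and 205.5 CPM with late rapamycin, and 160.3 and 122 CPM with tamoxifen (late rapamycin against tamoxifen 0.45, adjusted p = 0.155).

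Whether a treatment difference in a lineage differed from that in HSC-like cells was tested by an interaction term. None of 90 member tests passed for any comparison, where 0.0116% of all pairs passed for tamoxifen with rapamycin against tamoxifen, 0.0212% for late rapamycin against tamoxifen and 0.00482% for tamoxifen with rapamycin against late rapamycin. Unadjusted p-values under 0.05 were found for 2, 5 and 4 of the 90.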

How the data were processed

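The authors deposited raw UMI counts per gene and barcode for 2 libraries of 10x Genomics 3′ cells, with hashtag counts, aligned to mm10 with Cell Ranger 7.0.0 per the submitters' processing notes and 8.0.1 per the file headers. Intron counting is not given in the sources used here. The totals were 113535036 gene UMIs on day 1 and 115505329 on day 2. Hashtag counts above Otsu thresholds (28.3 to 60.8) named the mouse. Barcodes with several hashtags were removed, and 1467 and 1104 doublets of 1 hashtag are expected to remain. Cells had at least 500 genes, 1000 UMIs and at most 10% mitochondrial UMIs. A lineage gate needed a score of 0.25, 1.2 times the next list, and 3 markers. The 16 lists, the 10 genes and the tests were chosen with earlier results of these data known. Counts were summed per mouse and lineage (at least 50 cells, or 20 cells per division state) and tested with edgeR 4.0.16 (filterByExpr, TMM, quasi-likelihood, Benjamini-Hochberg). Treatments were tested in a separate fit for each lineage, with p-values adjusted within each fit and comparison. These fits held 94499 gene and lineage pairs in all. The labels state a shared day, so replicate numbers pair the mice as a block. Deviations of same-day mice correlated at -0.031 to 0.193 over lineages. DESeq2 1.42.0 with R 4.3.3 gave an alternative, and Python 3.11.15, numpy 2.4.6, pandas 2.3.3, scipy 1.17.1 and scikit-image 0.26.0 did the rest. Fits were tested on simulated counts. Of related pathway genes, at most 3 of each list by adjusted p were named. A second feature named Aldoa was left out. Ambient RNA was not measured.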

Additional observations from a re-analysis of the deposited data

Results flagged for a closer look

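Levels in the 6 mice of a lineage were screened for a mouse far from the others by Dixon's test, in 110 groups of 6. Chance picks out about 1 in 20 such groups, and 40 were picked out. Late rapamycin replicate 1 was the mouse in 35 of them, as the highest in 31. No explanation was tested.

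Its granulocyte and monocyte cells stood out most. In neutrophil progenitor-like cells it had 1984 CPM of Gapdh (1277 to 1342 in the other 5 mice), 685.5 CPM of Ldha (357.4 to 430), 527.9 CPM of Aldoa (338 to 377.4), 392.5 CPM of Pgk1 (272.1 to 281.6), 385.2 CPM of Tpi1 (266.8 to 290.7) and 193.3 CPM of Eno1 (107.7 to 119.9). Hk2 was not among the genes picked out there. In neutrophil-like cells it had 2073 CPM of Gapdh (999.8 to 1159), 1008 CPM of Pkm (641.3 to 776.6), 669.3 CPM of Aldoa (354.6 to 456.8), 490.3 CPM of Ldha (179.4 to 219.8), 133.4 CPM of Tpi1 (42 to 61.47), 93.86 CPM of Slc2a1 (24.82 to 46.74) and 37.05 CPM of Pfkl (3.546 to 11.22). In myelocyte-like cells it had 1528 CPM of Gapdh (969.3 to 1145), 760.9 CPM of Pkm (508.7 to 566.6), 443.6 CPM of Ldha (273.8 to 330.1) and 24.48 CPM of Slc2a1 (3.615 to 11.38). Hk2 went the other way there, at 44.95 CPM (75 to 85.84). In monocyte-like cells it had 1344 CPM of Gapdh (836.1 to 940.5), 612.6 CPM of Pkm (367.1 to 405.8), 482.7 CPM of Aldoa (229.2 to 302.2), 343.2 CPM of Pgk1 (192.5 to 216.3) and 325.6 CPM of Ldha (166 to 217.8).

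Outside these lineages the same mouse was high for Ldha in HSC-like cells at 263.4 CPM (150.1 to 187.5) and in MPP-like cells at 362.1 CPM (179.2 to 216.2), for Gapdh in MPP-like cells at 721.9 CPM (586.3 to 621.9) and for Slc2a1 in erythroid cells at 1.391 CPM (0 to 0.4191). It was low for Pfkl in lymphoid-primed cells at 24.36 CPM (33.63 to 37.73) and for Ldha in pro-B/pre-B-like cells at 108.2 CPM (221.8 to 259.8). The summed share of the 10 genes in this mouse was 0.4748% in neutrophil progenitor-like, 0.5031% in neutrophil-like, 0.4008% in myelocyte-like, 0.3614% in monocyte-like and 0.2053% in MPP-like cells, above the other mice, and 0.09825% in pro-B/pre-B-like cells, below them. The pro-B/pre-B-like values rest on 51 cells.

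Other mice accounted for 5 groups. Late rapamycin replicate 2 was highest for Gapdh in Gata2-positive cells at 602.5 CPM (508.7 to 540.2) and for Tpi1 in lymphoid-primed cells at 214.7 CPM (118.8 to 149.4). Tamoxifen with rapamycin replicate 1 was lowest for Tpi1 in HSC-like cells at 132.8 CPM (147.7 to 155.8). Tamoxifen replicate 1 was lowest for Slc2a1 in HSC-like cells at 16.72 CPM (23.11 to 26.81), and tamoxifen replicate 2 for the summed share in lymphoid-primed cells at 0.1315% (0.1444% to 0.1518%).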

How the results depend on the processing

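Over 13 alternatives, the number of member tests that passed was 57 to 75 for lineages against HSC-like cells (69 as reported) and 27 to 37 for dividing against non-dividing cells (37 as reported). Without the replicate block of day and mouse, 0 passed in each of the 3 treatment comparisons. For tamoxifen with rapamycin against tamoxifen, 0 passed under every alternative. For late rapamycin against tamoxifen, 5 passed with no filter on low counts, where 1.05% of all pairs passed (Ldha in erythroid, MPP-like and Gata2-positive cells, Tpi1 in Gata2-positive and Aldoa in monocyte-like cells), and 0 to 35 when each mouse was left out. For tamoxifen with rapamycin against late rapamycin, 2 passed with no filter (1.05% of all pairs), 1 with a stricter gate (0.238%), 1 with plain UMI totals (0.292%), an alternative chosen after seeing the data (Ldha in Gata2-positive cells, adjusted p = 0.04996), and 0 to 35 when each mouse was left out. Both highs of 35 came without late rapamycin replicate 2, where 9.83% and 9.38% of all pairs passed, and the cause was not tested. The other removals gave 0 to 2, beside 0.33% to 1.19% of all pairs where any member passed. Slc2a1, Hk2 and Pfkl, with 2387 to 7245 UMIs in all, are limited most by depth.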
